A study of Mus musculus with 2 samples.

Results

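The Sprr2 genes of mouse form a family of 10 members by the names used here (Sprr2a1, Sprr2a2, Sprr2a3, Sprr2b, Sprr2d, Sprr2e, Sprr2f, Sprr2h, Sprr2i and Sprr2k), and all 10 were found among the 43346 Ensembl genes of the deposited gene tables by matching symbols to gene identifiers. The family was selected on its readout: Sprr2a2 has the highest mean TPM (transcript abundance per length, scaled to 1 fixed total in each library) of any gene in these tables. Its level and rank are therefore given as a description and are not tested. The samples were 2 libraries of 1 group, small intestine of adult C57BL/6J mice (a widely used inbred strain) aged 8 weeks, each pooled from littermates of both sexes, with no treatment or other allele named in the labels. The labels number them biological replicates 1 and 2 and give neither the number of animals in a pool nor the segment of intestine. With n = 2 and no second group, no test was made, and each result is the value in each library.

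Small proline-rich proteins are precursors of the cornified envelope, the protein shell that transglutaminases cross-link beneath the membrane of squamous cells in skin, forestomach and oesophagus. Their genes sit in the epidermal differentiation complex, beside genes for involucrin, loricrin and S100 proteins. In mouse intestine, which has no cornified layer, Sprr2a is known as a gene of epithelial cells that bacterial colonisation and type 2 immune responses raise, and its protein has been described as acting against Gram-positive bacteria. Sprr2f is known for its response to oestrogen in mouse uterus.

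The libraries stood apart in RNA of neighbouring organs. The 8 exocrine pancreas markers summed to 199384 and 1628 TPM in replicates 1 and 2, and the 8 stomach gland markers to 19752 and 51.1 TPM. Markers of the labelled tissue were present in both: all 6 absorptive enterocyte, 6 goblet cell and 5 Paneth cell markers passed 1 TPM in each library, and each list summed higher in replicate 2, although Alpi, an enterocyte alkaline phosphatase, was lower there (3759 TPM in replicate 1, 1663 TPM in replicate 2). The enterocyte list summed to 7011 and 18364 TPM, the goblet list to 11870 and 24215 TPM and the Paneth list to 2231 and 9820 TPM in replicates 1 and 2. TPM values share 1 fixed total in each library, and the median of 12260 genes with a mean TPM of at least 1 lay 0.66 higher in replicate 2 on the log2(TPM + 1) scale. Depth was alike, at 45472946 and 45822403 expected counts (estimated fragments).

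Of the 10 members the 3 Sprr2a copies held counts, and the 7 other members were at 0 in both libraries. The 10 genes together reached 43761 TPM in replicate 1 and 29011 TPM in replicate 2, a mean of 36386 ± 10430 TPM (SD, n = 2), which is 4.38% and 2.90% of all TPM. They took 1104597 and 590058 expected counts. That is 2.43% of replicate 1 (95% exact Clopper-Pearson interval 2.42% to 2.43%) and 1.29% of replicate 2 (1.28% to 1.29%), intervals that cover counting error only. The share of counts is smaller than the share of TPM because the transcript behind most of these counts is short. In bulk tissue, fewer cells of a type and less RNA per cell cannot be told apart, so these shares do not say how many cells expressed the genes.

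**Figure D1:**
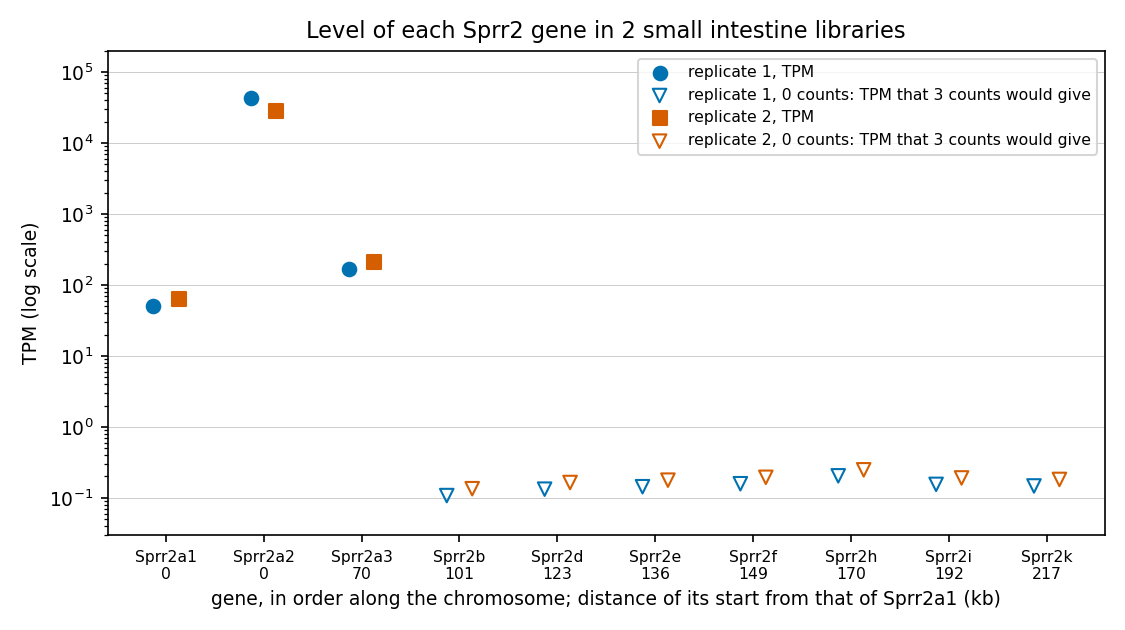
The plot shows TPM on a log axis for each of the 10 Sprr2 genes in chromosome order, with the distance of each start from that of Sprr2a1 in kb; filled circles (replicate 1) and squares (replicate 2) are deposited TPM, and open triangles mark genes at 0 counts, drawn at the TPM that 3 counts would give. Sprr2a2 lies at 43542 and 28739 TPM, Sprr2a3 and Sprr2a1 lie between 49.9 and 208 TPM, and the 7 others carry only triangles, none above 0.248 TPM.

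The members lie in a row on the + strand of chromosome 3, from chr3:92215799 at the start of Sprr2a1 to chr3:92433925 at the end of Sprr2k (GRCm38), a span of 218.1 kb. The copies with counts are the first 3 in the row and the members at 0 are the next 7. Sprr2a1 (ENSMUSG00000078664.2) is annotated at chr3:92215799-92221911, Sprr2a2 (ENSMUSG00000068893.5) at chr3:92215920-92256724 and Sprr2a3 (ENSMUSG00000074445.4) at chr3:92285417-92291405. Sprr2a1 and Sprr2a2 overlap by 5992 bases. The span holds 19 annotated genes, 9 of them not members, and 6 had any count. Besides the Sprr2a copies these were Gm37087, Gm37752 and Gm9774, all on the opposite strand and named here after their values were seen. Gm9774, next to Sprr2k, had the most of the 3, at 2.96 and 6.58 TPM in replicates 1 and 2. On either side of the row, Lelp1 to the left and Sprr1b to the right were at 0 counts in both libraries.

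The coding sequences of the Sprr2a copies are nearly the same, and they are printed here because reads from them cannot all be told apart. Those of Sprr2a1 and Sprr2a2 are the same 252 bases in the GENCODE transcripts. That of Sprr2a3 differs from them at 3 bases, printed in capitals below, which are G63A, G159T and A192T when positions are counted from the first base of the start codon and the base of Sprr2a2 is given first. Each falls at the third base of a codon that begins with CC. All codons that begin with CC encode proline, so the 3 genes encode the same protein.
Sprr2a2: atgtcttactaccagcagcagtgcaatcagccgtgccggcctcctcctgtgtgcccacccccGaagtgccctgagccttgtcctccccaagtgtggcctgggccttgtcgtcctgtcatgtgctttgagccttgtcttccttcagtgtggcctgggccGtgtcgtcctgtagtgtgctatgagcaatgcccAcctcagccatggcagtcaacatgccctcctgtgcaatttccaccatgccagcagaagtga
Sprr2a3: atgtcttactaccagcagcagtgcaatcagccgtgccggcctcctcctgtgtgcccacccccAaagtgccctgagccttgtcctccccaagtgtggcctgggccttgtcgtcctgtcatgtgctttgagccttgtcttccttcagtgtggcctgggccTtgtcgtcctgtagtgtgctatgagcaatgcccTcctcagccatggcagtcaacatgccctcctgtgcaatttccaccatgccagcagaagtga

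The 7 other members are more distant. The Sprr2a copies were identical to them at 57.9% to 74.7% of bases over 21 pairs aligned end to end, counted over the longer sequence. Among the 7 others, identity ran over 21 pairs between 52.3% and 97.0%, the highest being Sprr2e with Sprr2i. Codons that begin with CC make up 26 of 83 (31.3%) in each Sprr2a copy, against 21 of 68 (30.9%) in Sprr2k, 35 of 85 (41.2%) in Sprr2d and 46 of 108 (42.6%) in Sprr2h, the longest member. The repeat GAGCCNTGT, read in frame, occurs 2 times in the Sprr2a copies and in Sprr2i, 4 times in Sprr2e and Sprr2f, 5 times in Sprr2b and Sprr2d, 7 times in Sprr2h and 1 time in Sprr2k. It is in capitals in Sprr2d, printed here as a member at 0 counts that lies near the Sprr2a copies in length.
Sprr2d: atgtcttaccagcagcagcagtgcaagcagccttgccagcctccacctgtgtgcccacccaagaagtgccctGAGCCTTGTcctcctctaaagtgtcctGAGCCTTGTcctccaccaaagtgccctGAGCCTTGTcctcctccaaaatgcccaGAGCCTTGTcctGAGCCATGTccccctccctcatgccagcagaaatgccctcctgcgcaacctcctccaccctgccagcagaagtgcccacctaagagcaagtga

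Sprr2a2 had 43542 TPM in replicate 1 and 28739 TPM in replicate 2, a mean of 36141 ± 10468 TPM (SD, n = 2). It made up 99.5% and 99.1% of the family's TPM. Its rank by TPM among Ensembl genes was 3 in replicate 1 and 2 in replicate 2, so its first place holds for the mean and not within either library. No gene lies above it in mean TPM, and the next below were Igkc, the antibody kappa constant region, and Gm42418. Igkc had 23138 and 41938 TPM and Gm42418 had 41259 and 22178 TPM in replicates 1 and 2. Igkc was above Sprr2a2 in replicate 2 and below it in replicate 1.

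Sprr2a3 was next in level among the members, with 169 TPM in replicate 1 and 208 TPM in replicate 2 (mean 189 ± 27.9, SD, n = 2). Sprr2a1 followed, with 49.9 and 63.2 TPM (mean 56.6 ± 9.43, SD, n = 2). The listed order Sprr2a2, Sprr2a3, Sprr2a1 was the same in both libraries. Sprr2a2 was listed at 258 and 138 times the TPM of Sprr2a3 and at 873 and 455 times that of Sprr2a1. The gap to Sprr2a3 depends on effective length too, which was 486 and 504 nt for Sprr2a2 and 2393 and 1485 nt for Sprr2a3. The counts were 1077006 and 570935 for Sprr2a2, and 20569 and 12187 for Sprr2a3. The places of Sprr2a1 and Sprr2a2 in the order, and the gap between them, depend on how their shared reads were divided, which the transcripts show.

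The counts of Sprr2a2 rest on 1 annotated transcript, Sprr2a2-202, with 1076986 of 1077006 counts in replicate 1 and 570926 of 570935 in replicate 2. This transcript is 722 nt long. Its first exon of 43 nt, chr3:92215920-92215962, lies within the first exon of Sprr2a1-201 (chr3:92215799-92215962), and its second exon, chr3:92253886-92254564, lies at the Sprr2a2 locus beyond an intron of 37923 nt. All 722 bases also occur as 1 unbroken stretch, bases 122 to 843, of the 3003 nt of Sprr2a1-201. Of its 647 windows of 76 nt, the length of a read, 0 were absent from the transcripts of every other gene. Any read from Sprr2a2-202 thus also matches Sprr2a1-201, whatever its fragment length.

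The second annotated form, Sprr2a2-201, starts at an exon of its own (chr3:92250747-92250774) and received 20.2 counts in replicate 1 and 9.64 in replicate 2. Its second exon of 2839 nt differs from that of Sprr2a1-201 at 2 bases. Gene-specific windows were therefore few, 152 of 2792 in Sprr2a2-201 and 170 of 2928 in Sprr2a1-201. Sprr2a1-201, which carries 2281 nt that the short transcript lacks, received 7022 and 6935 counts. Within the shared 722 nt no base tells the genes apart.

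The deposited posterior standard deviations carry this sharing. They were 43.8 counts for Sprr2a2 and 43.8 for Sprr2a1 in replicate 1, and 44.6 and 44.7 in replicate 2, nearly the same number for a gene with 1077006 counts as for one with 7022. As a percent of the gene's count that is 0.00407% and 0.623% in replicate 1, and 0.00781% and 0.645% in replicate 2. These deviations describe the allocation under the annotation used and hold no spread between animals. Protein-coding transcripts with no gene-specific window were rare: 10 of 1709 with a mean TPM of at least 10 and a matching versioned identifier (0.585%), and Sprr2a2-202 was the most abundant of the 10, ahead of the Paneth defensin gene Defa20 at 8.04 and 1950 TPM.

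**Figure D2:**
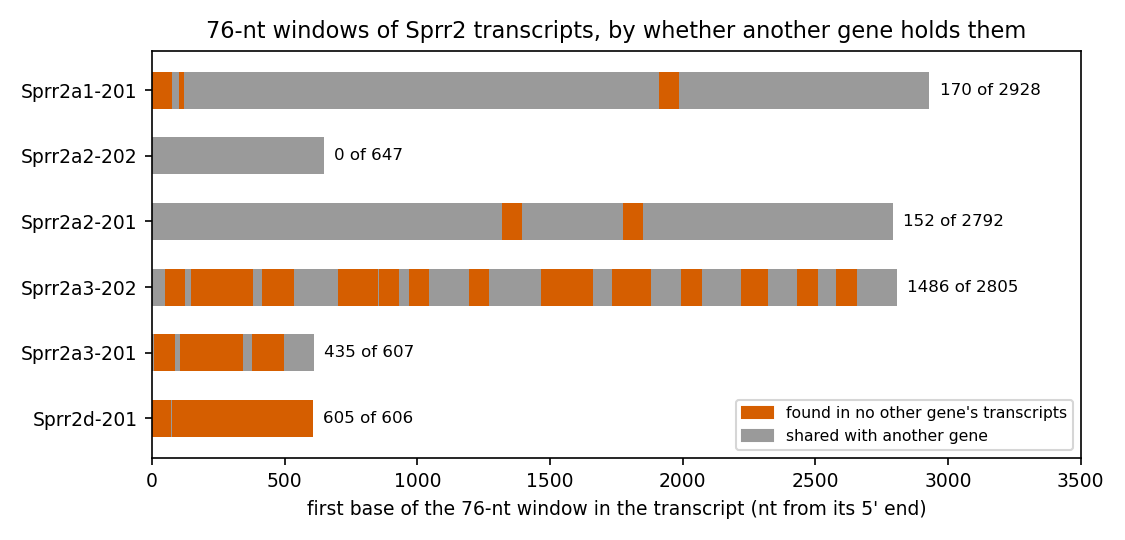
Each bar is an annotated transcript, drawn from its first base, with every 76-nt window coloured by whether another gene's transcripts hold it (grey) or not (orange); the number beside each bar is the count of gene-specific windows out of all windows. Sprr2a2-202 has 0 of 647, Sprr2a1-201 has 170 of 2928, and Sprr2d-201, a member at 0 counts, has 605 of 606.

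The annotated length weighs on the level itself. When the counts of Sprr2a1 and Sprr2a2 were pooled and divided by the effective length of Sprr2a1-201, an alternative added after the data were seen, their joint level was 7988 TPM in replicate 1 and 5395 TPM in replicate 2, in place of 43542 and 28739 TPM for Sprr2a2. The pooled counts, 1084028 and 577871, do not depend on this choice. Among the transcripts of Sprr2a1 and Sprr2a2, only Sprr2a1-201 and Sprr2a2-201 hold bases beyond the shared 722 nt. They received 7022 and 20.2 counts in replicate 1, and 6935 and 9.64 in replicate 2. The long length spreads the pooled counts over bases that few of them cover, so its level is a lower limit. By counts, with no length in the measure, the rank of Sprr2a2 among Ensembl genes was 4 in replicate 1 and 3 in replicate 2.

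Sprr2a3 can be separated from the other copies: 1486 of 2805 windows of its 2-exon transcript Sprr2a3-202 and 435 of 607 of its 1-exon transcript Sprr2a3-201 occur in no other gene. Its posterior standard deviation was 12.7 counts of 20569 in replicate 1 and 12.95 of 12187 in replicate 2. Between its own transcripts the division was less sharp, with 69.6 and 64.6 counts for Sprr2a3-202 and 68.5 and 62.7 for Sprr2a3-201. Only 2 of the 607 windows of the 1-exon form are missing from the 2-exon form.

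The deposited division of Sprr2a3 between its transcripts differed between the libraries. It rests on reads that the forms mostly share, and a change in the forms themselves was not tested. Sprr2a3-202 had 150 TPM in replicate 1 and 96.7 TPM in replicate 2, while Sprr2a3-201 had 19.3 and 112 TPM. The 1-exon form was thus 11.4% of the gene's TPM in replicate 1 and 53.6% in replicate 2. The gene's mean length was 1702 nt in replicate 2, against 2629 nt in replicate 1. The direction of the gene's difference depended on the scale: TPM was higher in replicate 2 (208 against 169), while FPKM (179 against 189), which is also per length, and CPM, counts scaled to the library total (266 against 452), were lower.

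The 7 other members, Sprr2b, Sprr2d, Sprr2e, Sprr2f, Sprr2h, Sprr2i and Sprr2k, had 0 expected counts in replicate 1 and 0 in replicate 2. A count of 0 allows up to 3 counts, which corresponds to 0.108 (Sprr2b) to 0.204 TPM (Sprr2h) in replicate 1 and 0.134 to 0.248 TPM in replicate 2. Zero counts are common: 22.0% of 21474 protein-coding genes had none in either library, so 7 of 10 members is to be read beside that share and also beside the choice of the family by Sprr2a2.

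Most of the sequence of these 7 genes occurs in no other gene. In the longest transcript of each, 511 of 542 windows (Sprr2i, 94.3%), 542 of 572 (Sprr2e, 94.8%), 682 of 709 (Sprr2b, 96.2%) and 605 of 606 (Sprr2d, 99.8%) were gene-specific, and all windows were in Sprr2f, Sprr2h and Sprr2k. The deposited upper credibility bounds stayed at or below 0.157 TPM in replicate 1 and 0.189 TPM in replicate 2, except in Sprr2h. Sprr2h has a second annotated transcript of 297 nt, and its bounds were 0.982 and 1.01 TPM, above the limits that 3 counts give. The related Sprr2g, Sprr2c-ps and Sprr2j-ps, which are not members, were also at 0 counts in both libraries.

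The annotated promoter windows of the members at 0 counts share 3 motifs that those of the Sprr2a copies do not hold, but the windows sit differently relative to the transcripts. In RefSeq (GRCm38.p6), each member has 1 window of 300 bases, 250 before the start and 50 after it. Searched on both strands for the exact letters, TGAGTCA (which AP-1 factors bind), ATTTGCAT (the octamer motif) and TATAAA (the core promoter box bound by the TATA-binding protein) were each in all 7 windows of the members at 0 counts and in 0 of the 3 Sprr2a windows. Over all 32851 RefSeq windows of this length, 5.20% held TGAGTCA, 1.74% held ATTTGCAT and 13.6% held TATAAA. Only 12 windows held all 3, and 7 of them were these members. The other 5 belong to Elf1, Gm39922, Gm42279, Skint11 and Vmn2r99. The 7 windows belong to related genes of 1 family, and the 3 Sprr2a windows share 1 stretch, so neither set holds independent cases. No rule for choosing the 3 motifs is given here. The 7 of 12 and the shares over all windows therefore describe these windows and test nothing. Whether the motifs relate to the 0 counts was not tested. The motifs do not overlap each other in the windows printed here.

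The spacing is also alike. In the 7 windows the first base of TATAAA lay 29 bases before the start, that of ATTTGCAT 108 to 112 bases and that of TGAGTCA 193 to 198 bases, counting the farther of 2 in Sprr2k. Motifs are in capitals in Sprr2b (chr3:92316455-92316754, + strand), Sprr2d (chr3:92338890-92339189, + strand) and Sprr2a2 (chr3:92250397-92250696, + strand), which has none of them.
Sprr2a2: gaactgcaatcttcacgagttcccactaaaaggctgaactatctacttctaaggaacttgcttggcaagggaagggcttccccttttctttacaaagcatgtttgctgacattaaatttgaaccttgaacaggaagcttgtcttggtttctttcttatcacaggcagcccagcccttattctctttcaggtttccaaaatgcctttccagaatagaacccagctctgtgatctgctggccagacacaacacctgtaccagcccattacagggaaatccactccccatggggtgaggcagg
Sprr2b: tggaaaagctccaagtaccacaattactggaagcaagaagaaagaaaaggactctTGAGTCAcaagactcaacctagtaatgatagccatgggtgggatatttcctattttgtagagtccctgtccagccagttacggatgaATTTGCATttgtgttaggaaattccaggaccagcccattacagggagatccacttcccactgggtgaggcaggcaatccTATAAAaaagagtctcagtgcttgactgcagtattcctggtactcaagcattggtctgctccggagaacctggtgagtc
Sprr2d: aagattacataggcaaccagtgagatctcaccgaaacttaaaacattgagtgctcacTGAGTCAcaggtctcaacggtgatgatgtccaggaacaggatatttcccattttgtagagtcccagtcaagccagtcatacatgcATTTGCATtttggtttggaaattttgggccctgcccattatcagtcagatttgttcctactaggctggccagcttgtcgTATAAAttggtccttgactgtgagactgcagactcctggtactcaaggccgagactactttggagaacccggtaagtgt

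The Sprr2a windows are placed differently from the others. In the others the RefSeq start was the GENCODE first base, except in Sprr2b. Its RefSeq start was chr3:92316705, inside a GENCODE first exon that begins at chr3:92316620. The windows of Sprr2a1 and Sprr2a2 are the same in all 300 bases, and that of Sprr2a3 is the same stretch moved by 28 bases, with 272 of 272 bases shared. At Sprr2a1 the RefSeq start, chr3:92215835, lies 85 bases before the first base of the 722-nt transcript that took nearly all counts, so its window ends at chr3:92215884, with 35 bases between it and that transcript. Joining this window to the first exon of Sprr2a1-201, which overlaps it by 86 bases, gave the 250 bases before the short transcript's start and its first exon. In those 293 bases, TATAAA occurred once, 29 bases before the short transcript's first base, the spacing found in the 7 others from their RefSeq starts. TGAGTCA and ATTTGCAT were not found there in these exact letters. The absence of TATAAA from the Sprr2a1 window thus goes with where that window ends, and the stretches just past the windows of Sprr2a2 and Sprr2a3 were not analysed here. The stretch with TATAAA in capitals, chr3:92215879-92215908, + strand of GRCm38, is printed beside the ones above.
Sprr2a1: ggcaggcaatccTATAAAaaagagtctcag

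Between the replicates, Sprr2a2 differed in the same direction in TPM and CPM. Sprr2a3 changed direction with the scale, and Sprr2a1 was nearly level in CPM. Sprr2a2 lay lower in replicate 2 by a log2 ratio (replicate 2 over replicate 1) of -0.60 on the TPM scale and -0.93 in CPM, with 23685 CPM in replicate 1 and 12460 CPM in replicate 2. Sprr2a1 had a log2 TPM ratio of 0.34 and stood at 154 and 151 CPM. The separate ratios of Sprr2a1 and Sprr2a2 follow the deposited division of their shared reads. Sprr2a3 had a log2 TPM ratio of 0.30 but a log2 CPM ratio of -0.77, near that of Sprr2a2. The summed family followed Sprr2a2, with a ratio of -0.59.

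The size of these ratios is read beside that of all genes. Of 5926 genes with a mean TPM of at least 10, 2250 (38.0%) lay at least 2-fold apart in either direction, and none of the 3 Sprr2a copies did. After subtraction of the median gene's 0.66, 777 genes (13.1%) lay at least 2-fold apart, among them Sprr2a2, at -1.26; Sprr2a1 stood at -0.33 and Sprr2a3 at -0.36. The deposited credibility intervals of the libraries were apart for all 3 copies and for 91.2% of the 5926 genes, so separation by that measure is the common case. The intervals are narrow and of unstated level, and for Sprr2a2 they ran from 43109 to 43274 TPM in replicate 1 and from 28382 to 28532 TPM in replicate 2, below the deposited TPM itself. Without the pancreas and stomach lists in the total, the family stood at 56042 and 29059 TPM in replicates 1 and 2, a ratio of -0.95. The part of those tissues' RNA in the difference was not tested beyond this.

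**Figure D3:**
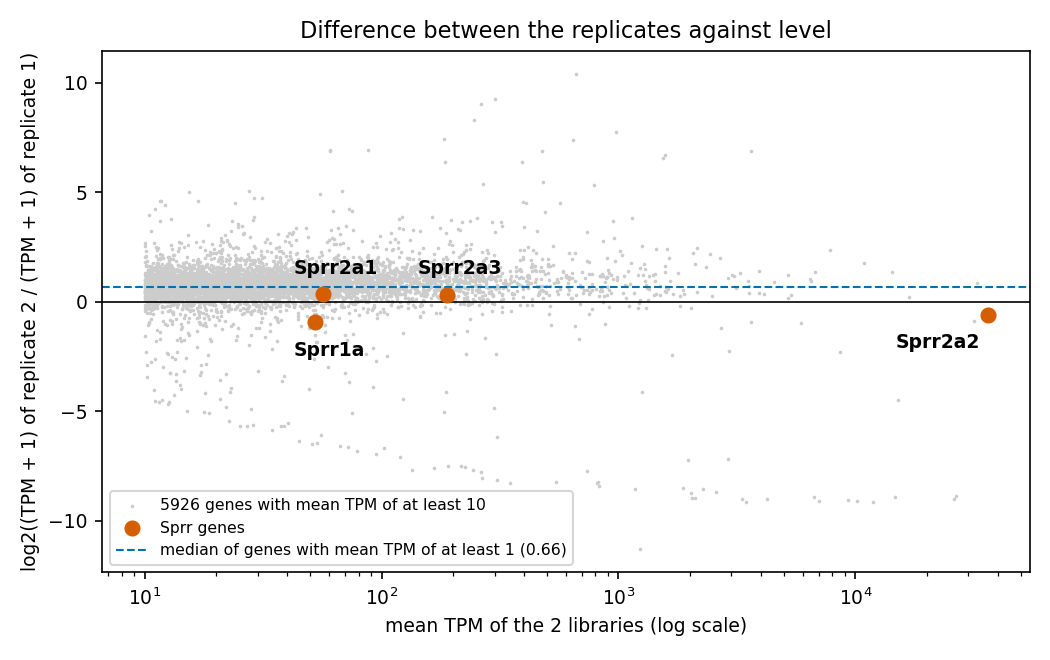
The plot sets log2 of (TPM + 1) in replicate 2 over replicate 1 against mean TPM on a log axis for 5926 genes with a mean of at least 10 TPM (grey), with Sprr genes in orange, a solid line at 0 and a dashed line at the median gene, 0.66. Sprr2a2 lies at the far right at -0.60, Sprr1a at -0.94, and Sprr2a1 and Sprr2a3 at 0.34 and 0.30, all below the dashed line. The points of Sprr2a1 and Sprr2a2 follow the deposited division of their shared reads.

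Among 105 protein-coding genes with a mean TPM of at least 1000, those whose replicate ratio was nearest the family's -0.59 were Plac8 (-0.31), Chchd2 (-0.30), Apoc2 (-0.28), Prap1 (-0.92) and Fth1 (-0.98). This likeness rests on 2 libraries, and the smallest gap to the family was 0.29.

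The other genes of the cornified envelope were mostly below 1 TPM. Of 28 such genes, 3 passed 1 TPM in both libraries, 24 were below 1 TPM in both and 14 had no counts. Over all protein-coding genes 22.0% had no counts in either library, and the share below 1 TPM is not given. The highest were Tgm2, a transglutaminase found in many tissues, at 74.7 and 73.4 TPM in replicates 1 and 2, and Sprr1a, an envelope precursor of a related small proline-rich family, at 69.0 and 35.5 TPM. The plakin genes Evpl and Ppl followed, with 5.04 and 9.91 TPM for Evpl and 0.88 and 1.24 TPM for Ppl. The summed list reached 151 and 122 TPM.

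Sprr1a was the only other Sprr gene above 1 TPM in both libraries. It had 2001 counts in replicate 1 and 822 in replicate 2, so like Sprr2a2 it was higher in replicate 1, with a log2 TPM ratio of -0.94. Sprr3 had 2 and 6 counts (0.04 and 0.15 TPM), and Sprr1b had none. Sprr4 also had none, but its 231-nt transcript leaves an effective length of only 4.82 and 15.7 nt, so that 3 counts would stand for 12.2 and 4.85 TPM and its zero says little.

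Markers of stratified squamous epithelium, the tissue in which the family is best known, were mostly below 1 TPM. Of 19 such genes 1, Sbsn, passed 1 TPM in both libraries (1.89 and 1.04 TPM), 17 were below 1 TPM in both, and 4 (Krt6a, Krtdap, Calml3 and Crnn) had no counts. Over all protein-coding genes 22.0% had none in either library, so the 4 of 19 is to be read beside that share. The share of all genes below 1 TPM is not given. Lgals7 had 1.89 TPM in replicate 1 and 0 in replicate 2, Krt15 0.90 and 0.26 TPM, and Krt13 0.82 and 0 TPM. The basal markers Krt5, Krt14 and Trp63 were between 0.03 and 0.35 TPM. The whole list summed to 6.74 and 2.39 TPM in replicates 1 and 2, beside 43761 and 29011 TPM for the Sprr2 genes. The family was chosen for the high TPM of Sprr2a2, so this gap is not a test.

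**Figure D4:**
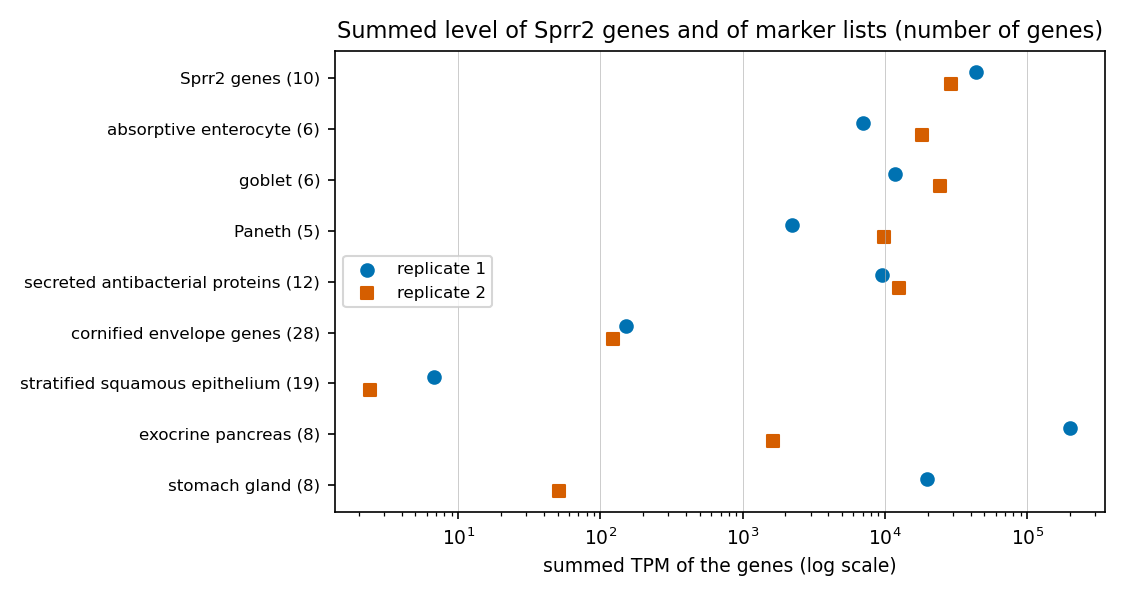
Points give the summed TPM of each gene list on a log axis in replicate 1 (circles) and replicate 2 (squares), with the number of genes in brackets. The antibacterial list holds no defensin gene. It shares Zg16 with the goblet list and Lyz1, Itln1 and Ang4 with the Paneth list. The family was chosen for the high TPM of Sprr2a2, so its place above other lists is not a test. By the deposited TPM the Sprr2 genes, at 43761 and 29011 TPM, lie above the enterocyte, goblet, Paneth and antibacterial lists in both libraries. With the long transcript's length, which gives a lower limit, they had 8164 and 5608 TPM. At that limit they would lie below the goblet and antibacterial lists in both, and below the enterocyte and Paneth lists in replicate 2. The squamous list lies at 6.74 and 2.39 TPM, and the pancreas and stomach lists are far apart between the libraries.

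Secreted antibacterial proteins of the gut epithelium were set beside Sprr2a. Of 12 listed genes, 10 passed 1 TPM in both libraries, a count given without the share over all genes. The list holds no defensin gene, and Defa24, on the Paneth list, had 1062 and 4303 TPM in replicates 1 and 2. The listed genes summed to 9518 and 12618 TPM in replicates 1 and 2, less than the deposited TPM of Sprr2a2 alone in each. The family was chosen for that high TPM, so this order is a description and not a test. The pooled level of Sprr2a1 and Sprr2a2 over the long transcript's length, 7988 and 5395 TPM, lay below the list. That level is a lower limit, since few of these counts lay beyond the 722 nt of Sprr2a2-202. The highest by mean were Zg16, a goblet cell lectin that binds Gram-positive bacteria, Reg3b, Lyz1 and Lypd8. Zg16 had 3074 and 4010 TPM, Reg3b, a lectin of the regenerating family, had 2837 and 525 TPM, the Paneth lysozyme gene Lyz1 had 650 and 2627 TPM, and Lypd8, whose product binds flagellated bacteria, had 1219 and 1951 TPM. Reg3b was lower in replicate 2, like Sprr2a2, whereas the other 3 were higher there. Further down the list, Reg3g was also lower in replicate 2 (1037 and 322 TPM), as were Slpi, Camp and Retnlb. The remaining genes of the list were higher there. The 1 gene below 1 TPM in both was Retnlb, at 0.81 and 0 TPM.

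Genes linked to Sprr2 induction in the literature were partly present. Of 16 factors, receptors and cytokines, 10 passed 1 TPM in both libraries, a count given without the share over all genes. The highest were the transcription factors Klf4 (142 and 479 TPM) and Elf3 (88.0 and 152 TPM), the interleukin 22 receptor gene Il22ra1 (49.95 and 140 TPM) and Stat3 (44.5 and 87.5 TPM), each higher in replicate 2, where Sprr2a2 was lower. Stat6, which carries type 2 cytokine signals, had 36.7 and 82.9 TPM, and its receptor subunit gene Il4ra had 18.9 and 34.0 TPM; both are named outside the naming rule, after their values were seen. The median log2 ratio of the 10 was 0.82, beside 0.66 for all genes. The 6 others, below 1 TPM in both libraries and also outside the rule, were the cytokine genes Il4, Il13, Il22 and Il25 and the epithelial transcription factors Trp63 and Grhl3.

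Of the S100 genes of the same chromosome 3 complex, which encode calcium-binding proteins, 7 of 13 passed 1 TPM in both libraries and 5 were below it in both. These counts are given without the share over all genes. S100a6 had 298 TPM in replicate 1 and 173 TPM in replicate 2, S100a10 had 34.9 and 141 TPM, S100a11 had 39.4 and 66.8 TPM, and S100a16 had 52.4 and 36.7 TPM. Of the 5 low genes, S100a5 had no counts, and S100a3, S100a7a, S100a8 and S100a9 had at most 0.36 TPM. The neighbouring families of the complex thus had members at a wide spread of levels, none near that of Sprr2a2, which was chosen for its level.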

How the data were processed

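Per the labels, the libraries hold poly(A)+ RNA of over 200 nt, read in stranded pairs of 76 nt. No aligner or quantifier is named (not given in the sources used here); the columns carry RSEM's names. The authors deposited, per library, expected counts, TPM, FPKM, posterior means and standard deviations, bounds of credibility (a signal on the TPM scale, level not stated) and the percent of each gene's TPM by transcript, for mm10 and annotation M4. Symbols, coordinates, transcripts and coding sequences came from GENCODE M21 (GRCm38) and promoters from RefSeq; the Sprr2 transcripts had the same lengths in M21 and the deposited tables.

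A gene was detected at 1 TPM in both libraries. The share of all genes that passed this is not given here, so counts of detected list genes have no background beside them. The ratio between libraries was log2 of (TPM + 1) in replicate 2 over (TPM + 1) in replicate 1; the pseudocount of 1 understates it for low genes. Counts of genes 2-fold apart used a minimum mean TPM of 10. A window was gene-specific when no transcript of another M21 gene held its 76 bases on the same strand. Mean fragment lengths implied by the effective lengths were 237 and 219 nt. edgeR 4.0.16 (TMM) and DESeq2 1.42.0 (R 4.3.3) scaled rounded expected counts as alternatives; other values came from Python 3.11.15, pandas 2.3.3, scipy 1.17.1 and Biopython 1.88. The count of gene-specific windows and the TMM scaling were tested on simulated data.

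The members, lists and measures were chosen with earlier results of these data known. Named genes are the members, other Sprr genes, the 4 highest of each gene list and, where 5 or fewer, those below 1 TPM in both libraries, neighbours by level and replicate ratio, and the genes beside the cluster; any other gene, single marker genes included, was chosen after its values were seen.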

Additional observations from a re-analysis of the deposited data

How the results depend on the processing

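The family's mean of 36386 TPM and Sprr2a2's of 36141 TPM moved by less than the spread between replicates with posterior mean TPM, rescaled FPKM, annotated lengths or a total without the pancreas and stomach lists. With 1 library left out, they ran over 29011 to 43761 TPM and 28739 to 43542 TPM. Pooling Sprr2a1 with Sprr2a2 over the long transcript's length, chosen after seeing the data, gave 6886 TPM for the family and 6691 TPM for the pooled pair. These are lower limits, because few of the pooled counts lay beyond the shared 722 nt. The Sprr2a copies' share of family TPM was 100% with each library left out and by counts, and 99.998% by posterior mean TPM, which gives genes without counts a value above 0. The family's log2 ratio of -0.59 kept its sign throughout: -0.92 in CPM, -0.95 without the pancreas and stomach lists, -1.26 relative to the median gene, and -1.32 with TMM and with DESeq2 size factors. The 2250 genes at least 2-fold apart became 3529 without a TPM minimum, 3437 from a mean TPM of 1, 777 after centring and 1129 in CPM. The count of 3 detected members was the same under every alternative run for it. No paired analysis was possible because there is 1 group. Depth limits the 7 members at 0 counts to the bounds given; the tables cannot divide the 722 nt shared by Sprr2a1 and Sprr2a2, and 2 libraries that differ in pancreas and stomach RNA give no usable estimate of the spread between animals.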
